A study of Mus musculus with 8 samples.

Results

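The 10 transcription factors and coactivators described here steer brown fat, the fat that burns fuel to make heat. They are Prdm16, Ebf2, Ppargc1a, Ppargc1b, Pparg, Ppara, Cebpa, Cebpb, Esrra and Esrrg, a list of symbols looked up in a table of 22552 mouse genes. All 10 were in the table, none was listed at 0, and all 10 passed a filter on the mean of both pools, at least 1 FPKM (fragments scaled by transcript length and library size) that 11597 genes passed. The tissue was brown fat of mice aged 2 months on a mixed 129SV, FVB/N and C57BL/6 background. Null mice were homozygous for loss of mir-193b (-/-), which the study's title pairs with mir-365-1, and wild-type (WT) mice were +/+. The deletion was made by mating mice that carried the MMTV-Cre transgene and a floxed allele, and the Cre transgene was bred out of the line. There were 3 Null and 3 WT mRNA samples and 1 Null and 1 WT microRNA sample. The 3 mRNA samples of a genotype reach the table as 1 combined value, here the Null pool and the WT pool, so no value has an SD, no difference has a replicate check, and sequencing depth is unknown.

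As background, Prdm16 is a zinc finger protein that turns precursor cells towards brown fat and away from muscle, and Ebf2 opens brown fat genes for Pparg. Pparg and the C/EBP proteins drive the formation of any fat cell, while Ppara switches on genes that burn fatty acids. Ppargc1a and Ppargc1b bind such factors as coactivators and, with the orphan receptors Esrra and Esrrg, raise mitochondrial genes, Ppargc1a being the one that cold induces through cAMP. In a bulk tissue, fewer cells of a type and less RNA per cell cannot be told apart.

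The sequences below, from RefSeq on build GRCm38.p6, are mature microRNAs of the deleted locus and microRNAs reported to act on these regulators or their antagonists, and they are shown because the levels of both kinds are set beside the regulators further on. Capitals mark the seed, bases 2 to 8, with which a microRNA pairs to its target mRNAs.
miR-193b-3p: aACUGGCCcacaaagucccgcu
miR-365-3p: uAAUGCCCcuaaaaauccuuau
miR-133b-3p: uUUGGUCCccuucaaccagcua
miR-27a-3p: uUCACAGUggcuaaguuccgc
miR-27b-3p: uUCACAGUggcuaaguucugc
miR-130a-3p: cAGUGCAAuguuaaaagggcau
miR-130b-3p: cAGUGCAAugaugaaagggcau
miR-155-5p: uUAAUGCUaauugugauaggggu
miR-455-3p: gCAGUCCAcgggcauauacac
Within this set, miR-27a-3p and miR-27b-3p share the seed UCACAGU, and miR-130a-3p and miR-130b-3p share AGUGCAA. The seeds of the deleted miR-193b-3p, ACUGGCC, and of miR-365-3p, AAUGCCC, occur in none of the other sequences shown as a seed.

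The regulators kept their order by level: each of the 10 held the same place in the Null pool as in the WT pool. Cebpa was the most abundant, at 337 FPKM in the Null pool and 264 FPKM in the WT pool, and Prdm16 the least, at 6.58 FPKM in the Null pool and 6.91 FPKM in the WT pool. The span between them was 51.1-fold in the Null pool and 38.1-fold in the WT pool. Of the 10, 9 were within 1.5-fold between genotypes and Ppara was lower in the Null pool. Differences are given as log2((Null + 1)/(WT + 1)), a scale that understates the change of low genes. The median of the 10 was -0.04, beside 0.01 over all 11597 genes.

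**Figure D1:**
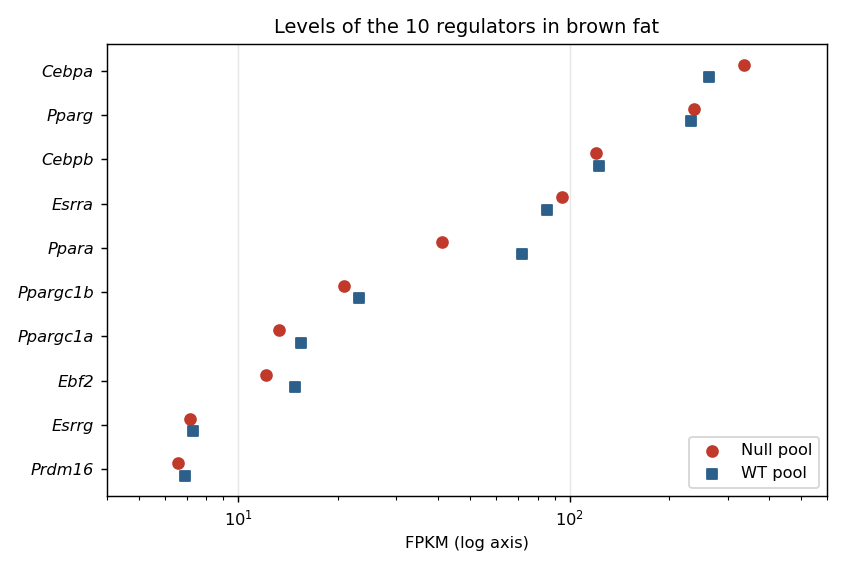
Level of each regulator in FPKM (log axis), 1 point per genotype, circles for the Null pool and squares for the WT pool. The order from Cebpa to Prdm16 is the same in both pools, and the widest gap is that of Ppara, at 41.2 FPKM in the Null pool and 71.9 FPKM in the WT pool.

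The identity factors were within 1.5-fold between genotypes. Prdm16 had a log2 ratio of -0.06, and 13.8% of all genes had a smaller difference in either direction. Its level exceeded that of 38.2% of the 11597 genes in the Null pool and 38.9% in the WT pool, so it ranked below the middle of the expressed genes in both. Ebf2 was at 12.2 FPKM in the Null pool and 14.8 FPKM in the WT pool, a log2 ratio of -0.27. It was the second largest difference downward among the 10 and lay at percentile 22.8 of the ratios of all genes, of which 53.8% had a smaller difference in either direction. Its level exceeded that of 56.0% of genes in the Null pool and 61.3% in the WT pool. Within each pool, Ebf2 was 1.85 times Prdm16 in Null and 2.15 times Prdm16 in WT.

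Both coactivators were slightly lower in the Null pool. Ppargc1a was at 13.2 FPKM in the Null pool and 15.5 FPKM in the WT pool, a log2 ratio of -0.21. Ppargc1b, its relative, was at 20.8 FPKM in the Null pool and 23.1 FPKM in the WT pool, a log2 ratio of -0.15. Ppargc1b was thus the more abundant coactivator per transcript length in both genotypes, 1.57 times Ppargc1a in Null and 1.49 times in WT. Pprc1, the remaining member of this family, was at 2.82 FPKM in the Null pool and 3.06 FPKM in the WT pool.

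The 2 PPAR receptors differed in what the pools showed. Pparg, the receptor that fat cells need to form, was at 237 FPKM in the Null pool and 233 FPKM in the WT pool, a log2 ratio of 0.03. Ppara was at 41.2 FPKM in the Null pool, 57.3% of the 71.9 FPKM in the WT pool, a log2 ratio of -0.79. Of all genes, 3.06% had a lower ratio than Ppara. Ppara was exceeded by 1894 genes in the Null pool and by 1077 in the WT pool, a change of percentile of -7.04, the widest of the 10. Pparg was 5.77 times Ppara in the Null pool and 3.24 times Ppara in the WT pool, and this quotient does not change when a column is multiplied by 1 factor. Ppard, the remaining PPAR gene, described here for its kinship after its values were seen, was at 7.22 FPKM in the Null pool and 10.7 FPKM in the WT pool, a log2 ratio of -0.51.

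The C/EBP factors stood among the most abundant regulators. Cebpa, which holds fat cells in the mature state, had the highest log2 ratio of the 10, 0.35, where 82.2% of all genes had a lower one. Cebpb acts early in fat cell formation and partners with Prdm16. It was at 120 FPKM in the Null pool and 122 FPKM in the WT pool, a log2 ratio of -0.03. Cebpa was 2.80 times Cebpb in the Null pool and 2.15 times in the WT pool. Of the estrogen-related receptors, Esrra was at 94.9 FPKM in the Null pool and 85.5 FPKM in the WT pool, a log2 ratio of 0.15, and 877 genes exceeded it in each pool. Esrrg was at 7.17 FPKM in the Null pool and 7.28 FPKM in the WT pool, a log2 ratio of -0.02. Esrra exceeded Esrrg 13.3 times in Null and 11.7 times in WT.

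**Figure D2:**
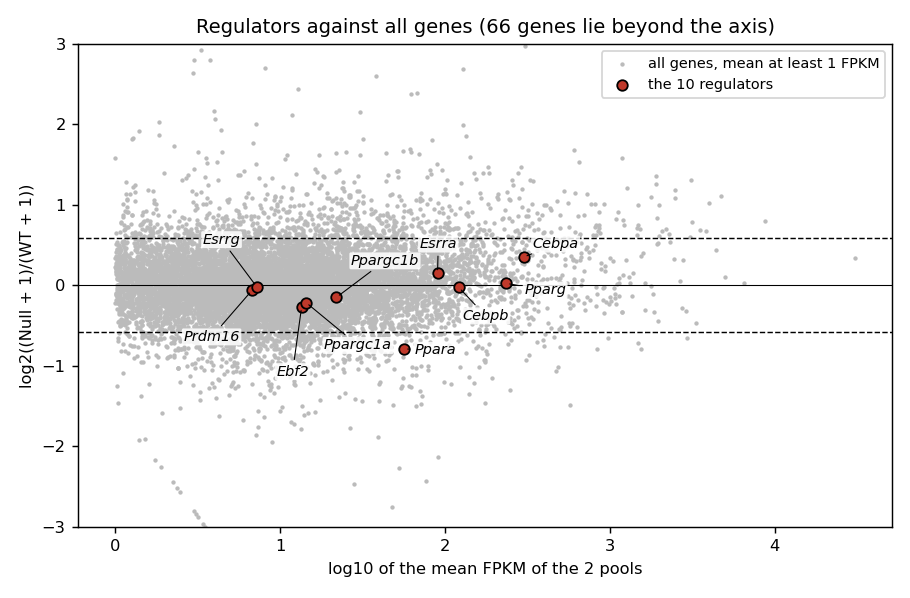
Log2 ratio of Null over WT (vertical axis, pseudocount of 1 FPKM) against the log10 of the mean FPKM of both pools, for 11597 genes in grey and the 10 regulators in red; dashed lines mark 1.5-fold. Ppara lies below the lower line, and the other 9 lie between the lines.

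At 1.5-fold or more, 1 of the 10 was lower in the Null pool, where 6.75% of all genes were, and 0 of the 10 were higher, where 7.87% of all genes were. At 2-fold or more the counts were 0 lower, beside 1.65% of all genes, and 0 higher, beside 2.17%. These shares are near the background, so the count says nothing particular about the regulators. Quotients between regulators are built from the same values, so they restate these ratios and add no separate support. Over the 45 pairs, 8 quotients differed by 1.5-fold or more between the pools, and 7 of the 8 involved Ppara. No share over all pairs of genes was computed to set beside this. The remaining one was Cebpa over Ebf2, 27.7 in the Null pool and 17.8 in the WT pool. No pair changed its order.

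The choice of scaling mattered for the small differences. The columns summed to 590327 FPKM in Null and 508701 FPKM in WT, and setting these sums equal moved the median log2 ratio of all genes to -0.18 and the shares past 1.5-fold to 4.05% higher and 13.96% lower. Over 5 settings, Ppara, Ebf2, Ppargc1a, Ppargc1b, Prdm16 and Cebpb were lower in the Null pool in each, and Cebpa was higher in each. Values as deposited, with a pseudocount of 0.1 FPKM and with a median ratio of 1 share almost the same scaling, so they are not separate checks. In these Prdm16 was at -0.06, -0.07 and -0.07, and Cebpb at -0.03 in each. Pparg, Esrra and Esrrg lay on the other side of 0, or at it, under at least 1 setting. Relative to the shifted median, Ppara was at -0.82, Cebpa at 0.32, Prdm16 at -0.07 and Cebpb at -0.06 with equal sums. With quantile normalization Ppara was at -0.85 and Cebpa at 0.14.

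**Figure D3:**
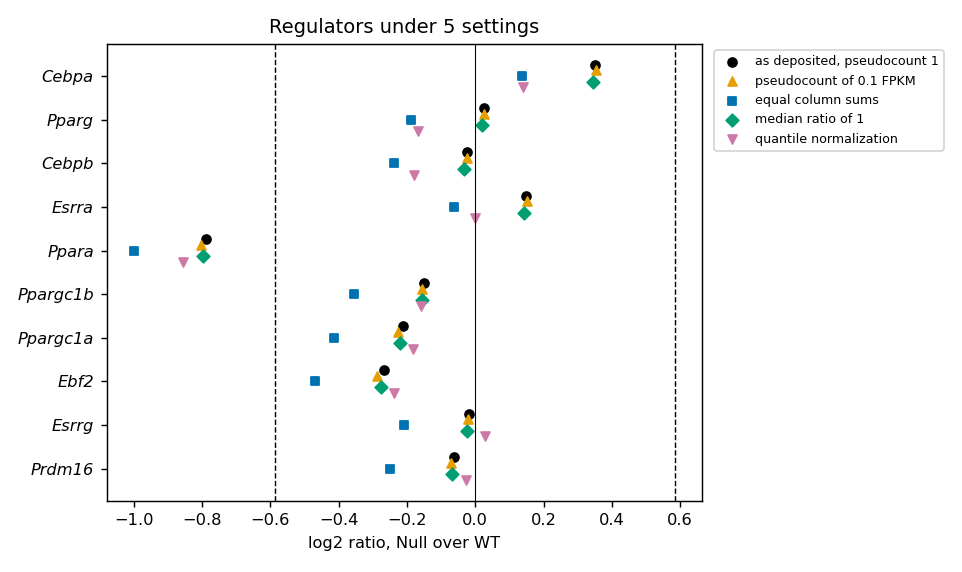
Log2 ratio of Null over WT for each regulator under 5 settings, 1 symbol per setting; dashed lines mark 1.5-fold. Ppara lies beyond the lower line in every setting shown, at -0.79 or lower, and no other regulator reaches either line.

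Start sites of the regulators were taken from RefSeq promoter windows on build GRCm38.p6, 250 bases before to 50 bases after a start, of which 8 of the 10 genes had 13. Ebf2 and Ppargc1b had none in the table. Of the windows, 4 are shown: that of Ppara, the regulator that was lower, the window of Pparg, its relative, furthest downstream, and those of Ppargc1a and Cebpb, genes known to respond to cAMP. Capitals mark matches, on either strand, to the cAMP response core TGACG or to the C/EBP core TTGCNNAA.
Ppara, chr15:85735526-85735825, plus strand: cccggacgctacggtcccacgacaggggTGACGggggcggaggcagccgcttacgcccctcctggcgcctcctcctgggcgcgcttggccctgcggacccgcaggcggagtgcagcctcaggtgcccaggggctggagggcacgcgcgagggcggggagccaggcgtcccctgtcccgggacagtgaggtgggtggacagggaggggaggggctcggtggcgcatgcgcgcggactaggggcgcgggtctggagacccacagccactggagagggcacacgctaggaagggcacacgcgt
Pparg, chr6:115421816-115422115, plus strand: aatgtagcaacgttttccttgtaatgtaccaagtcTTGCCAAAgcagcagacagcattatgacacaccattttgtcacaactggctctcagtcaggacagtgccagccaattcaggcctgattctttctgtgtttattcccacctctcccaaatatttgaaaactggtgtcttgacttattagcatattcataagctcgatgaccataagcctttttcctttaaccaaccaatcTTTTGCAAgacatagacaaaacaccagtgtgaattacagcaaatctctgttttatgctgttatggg
Ppargc1a, chr5:51567676-51567975, minus strand: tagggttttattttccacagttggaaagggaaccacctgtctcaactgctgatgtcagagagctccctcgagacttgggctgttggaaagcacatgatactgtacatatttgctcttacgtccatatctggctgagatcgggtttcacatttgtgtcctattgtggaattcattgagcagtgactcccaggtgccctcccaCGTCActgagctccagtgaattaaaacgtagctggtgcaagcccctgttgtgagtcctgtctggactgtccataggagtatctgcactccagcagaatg
Cebpb, chr2:167688665-167688964, plus strand: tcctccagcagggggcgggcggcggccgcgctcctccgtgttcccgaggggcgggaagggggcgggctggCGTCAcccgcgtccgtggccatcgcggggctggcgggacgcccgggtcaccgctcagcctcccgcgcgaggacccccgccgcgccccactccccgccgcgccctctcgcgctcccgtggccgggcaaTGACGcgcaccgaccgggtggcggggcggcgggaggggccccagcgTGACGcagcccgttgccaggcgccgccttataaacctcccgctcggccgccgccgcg
The letters TGACG were in 3 of the 13 windows, those of Ppara, Ppargc1a and Cebpb, and in 20.8% of all 32851 windows of this length. Cebpb held 3 matches, which began at -180, -53 and -7 from the start, Ppargc1a 1 match at -49 and Ppara 1 match at -222. TTGCNNAA was in 2 windows, that of Pparg shown here, with matches beginning at -215 and -16, and 1 of Esrrg, and in 10.8% of all windows. The ERR motif TCAAGGTCA was in 0 of the 13 and in 0.423% of all windows. A match describes these letters and is no evidence of binding.

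The relatives, partners and opponents of the regulators were compared in the same way, from lists of genes drawn from general knowledge. Every count of a list below, at 1.5-fold as deposited, stands beside the 6.75% of all genes that were lower in the Null pool and the 7.87% that were higher. None of the 12 measured relatives passed 1.5-fold as deposited, with a median log2 ratio of -0.20. With equal column sums 3 relatives were lower, where 13.96% of all genes were. The most abundant was Ddit3, a stress-induced C/EBP relative, at 64.1 FPKM in the Null pool and 61.0 FPKM in the WT pool. Of 25 measured coactivators and partners, 3 were lower and 0 higher, with a median of -0.12. Lpin1, a phosphatidate phosphatase that also coactivates Ppara with Ppargc1a and was the most abundant of the list, was at 81.4 FPKM in the Null pool and 166 FPKM in the WT pool (-1.02). Rxra, a receptor that pairs with PPARs on DNA, was at 13.1 FPKM in the Null pool and 22.0 FPKM in the WT pool (-0.71). Its relatives Rxrb (-0.09) and Rxrg (0.07), named after their values were seen, were close between pools. Irf4, a factor that works with Ppargc1a in brown fat, was at 3.65 FPKM in the Null pool and 6.74 FPKM in the WT pool (-0.74).

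Among 16 measured corepressors and antagonists, 2 were higher and 1 was lower, with a median of -0.10. Id2, an inhibitor of helix-loop-helix factors, was at 41.0 FPKM in the Null pool and 17.6 FPKM in the WT pool (1.18), and Hes1, a Notch-induced repressor, at 16.0 FPKM in the Null pool and 8.82 FPKM in the WT pool (0.79). Nrip1, a corepressor of nuclear receptors that holds back Ucp1, was at 1.89 FPKM in the Null pool and 3.67 FPKM in the WT pool (-0.69). The most abundant, the deacetylase Hdac3, was at 50.3 FPKM in the Null pool and 39.8 FPKM in the WT pool (0.33). Runx1t1, a reported target of miR-193b and miR-365 that restrains brown fat formation, was at 0.227 FPKM in the Null pool and 0.291 FPKM in the WT pool, below the filter.

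Genes that the regulators are known to control held both directions. Of 16 measured targets of Ppara, 2 were lower and 1 was higher by 1.5-fold, with a median log2 ratio of -0.22 and 13 of 16 below 0. Of other lists, 19 of 25 coactivators and partners, 9 of 12 relatives and 7 of the 10 regulators were below 0, as were 49.4% of all genes. The remaining lists were nearer that share. Below 0 were 9 of 14 brown fat identity targets and 13 of 23 targets of ERR and PGC-1. The counts were 11 of 19 for targets of Pparg and C/EBP and 9 of 16 for corepressors and antagonists. Among the Ppara targets, Ehhadh, a peroxisomal enzyme of fatty acid oxidation, was lower (-0.62). It was at 28.3 FPKM in the Null pool and 44.2 FPKM in the WT pool. The hormone gene Fgf21 was also lower, at 0.551 FPKM in the Null pool and 1.72 FPKM in the WT pool (-0.81). Angptl4, an inhibitor of lipoprotein lipase, was higher, at 419 FPKM in the Null pool and 219 FPKM in the WT pool (0.93). The most abundant, the dehydrogenase Acadm, was at 1090 FPKM in the Null pool and 1190 FPKM in the WT pool (-0.13).

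Of 19 measured targets of Pparg and C/EBP, 4 were lower and 3 were higher, with a median of -0.13. The lower ones were Acsl1, Agpat2, Gpd1 and Lep, with ratios of -0.77, -0.72, -0.65 and -0.59, which include 3 enzymes that activate fatty acids or build triglyceride. The higher ones were the secreted proteins of Cfd (1.00), Adipoq (0.71) and Retn (0.66). Fabp4, the most abundant, had a ratio of 0.35. Of 23 measured targets of ERR and PGC-1, which share Esrra itself with the regulators, 3 were lower and 2 were higher, with a median of -0.11. Ogdh (-0.70) and Sdha (-0.65) of the citric acid cycle and Mfn2 (-0.60), which fuses mitochondria, were lower. Cycs, which encodes cytochrome c (1.24), and Cox5b, a subunit of its oxidase (0.59), were higher, and the most abundant, Cox6a1, had a ratio of 0.43. Cycs has processed copies elsewhere in the genome, so its value is uncertain. Of 14 measured brown fat identity targets, 4 were lower, Elovl3 (-2.27), Dio2 (-0.97), Ppp1r3c (-0.68) and Otop1 (-0.65), and 2 were higher, Cox7a1 (1.02) and Cox8b (0.80), the last also the most abundant. The split of the lists moved with the scaling. With equal column sums, where 13.96% of all genes were lower and 4.05% higher, 5 Ppara targets were lower and 1 was higher, 7 targets of Pparg and C/EBP were lower and 1 was higher, 5 of ERR and PGC-1 were lower and 1 was higher, and 5 corepressors and antagonists were lower and 2 were higher. With quantile normalization, where 6.99% of all genes were lower and 7.29% higher, 5 Ppara targets were lower and 1 was higher, 7 targets of Pparg and C/EBP were lower and 0 were higher, 7 of ERR and PGC-1 were lower and 1 was higher, and 5 brown fat identity targets were lower and 1 was higher. Other settings moved smaller counts. With a mean of at least 5 FPKM, where 7.03% of all genes were lower, 1 Ppara target and 0 corepressors and antagonists were lower. With a pseudocount of 0.1 FPKM, where 10.3% of all genes were higher, 2 Ppara targets were higher. With a median ratio of 1, where 7.72% of all genes were higher, 1 of the ERR and PGC-1 targets was higher.

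**Figure D4:**
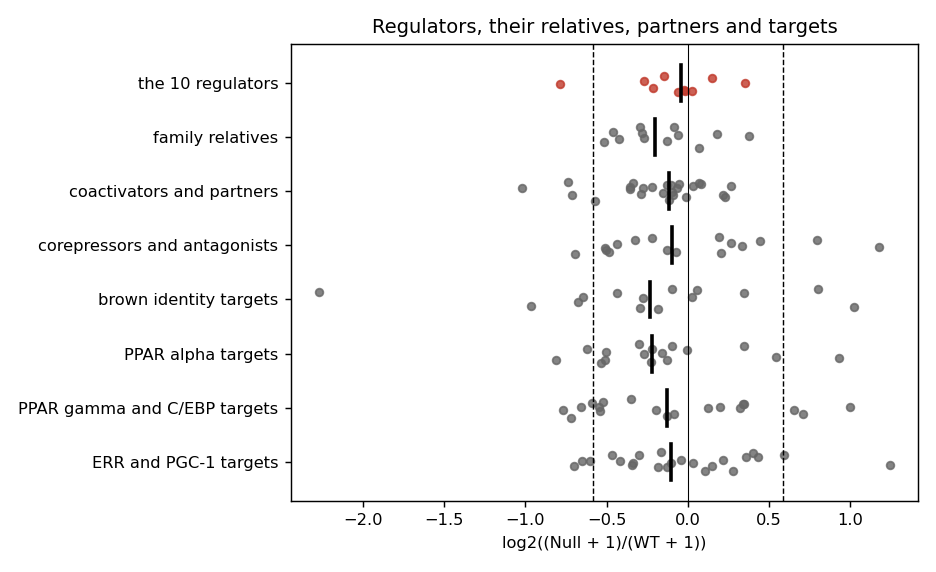
Log2 ratio of Null over WT for each gene with a mean of at least 1 FPKM, by list, with the regulators in red; black bars are list medians and dashed lines mark 1.5-fold. As deposited, medians of all 8 lists lie between -0.23 and -0.04.

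Markers of other cell types stood at different levels in the pools, and skeletal muscle also expresses Ppara, Ppargc1a, Esrra and Esrrg. Of 12 muscle fibre markers 7 were lower by 1.5-fold and 0 were higher, none was at 0, and their sum was 2499 FPKM in the Null pool and 3425 FPKM in the WT pool. The other 5 were within 1.5-fold, among them Mylpf (0.09) and Pvalb (-0.01), and 11 of the 12 were below 0. No ratio of these markers, the regulators or the lists was checked against transcript length. Single markers ran between 2.53 and 513 FPKM in the Null pool and between 7.52 and 655 FPKM in the WT pool. The sums of 6 macrophage markers were 104 FPKM in Null and 74.9 FPKM in WT, and those of 6 fibroblast markers 401 FPKM in Null and 244 FPKM in WT. Those of 5 endothelial markers were 194 FPKM in Null and 188 FPKM in WT. The 3 red cell markers summed to 349 FPKM in Null and 113 FPKM in WT, and 6 lymphocyte markers to 5.45 FPKM in Null and 1.53 FPKM in WT. Of the lymphocyte markers 5 were below the filter of 1 FPKM, so this sum rests on very low values. Of 7 brown fat cell markers 3 were higher by 1.5-fold and 0 were lower as deposited, with a median log2 ratio of 0.35. Of the 7, 5 were above 0, and the 2 below 0 were Ucp1 (-0.28) and Plin1 (-0.55). The sums were 58689 FPKM in Null and 43714 FPKM in WT. Fabp4 alone made up 34679 FPKM of the sum in Null and 27295 FPKM in WT. All 7 also stand in the target lists above, so they are no separate set of genes. The 3 markers that were higher as deposited were Cox7a1, Cox8b and Adipoq. With quantile normalization 0 targets of Pparg and C/EBP, the list that holds Adipoq, were higher. Of the identity targets, which hold Cox7a1 and Cox8b, 1 was higher, so the count of 3 did not hold in that setting. All 7 were abundant, between 400 and 34679 FPKM in Null and between 585 and 27295 FPKM in WT, as the tissue label implies. What part these cells have in the values of the regulators was not tested.

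The microRNA libraries bore on the regulators in 3 ways. First, the deletion itself was seen: miR-193b-3p was at 11.5 RPM in the Null library and 3705 RPM in the WT library, where RPM is the authors' scaled read value, and miR-365-3p, which a second locus also makes, was at 798 RPM in Null and 1442 RPM in WT. Second, the gene of miR-378a lies within an intron of Ppargc1b. Its main strand miR-378a-3p ranked as the second most abundant of 386 microRNAs in both libraries, at 162708 RPM in Null and 188029 RPM in WT, a ratio of 0.865. The partner strand miR-378a-5p was at 1464 RPM in Null and 1602 RPM in WT, a ratio of 0.914. The host gene Ppargc1b had a ratio of 0.898 in FPKM. These 3 ratios come from different libraries and scales, and the median ratio was 1.13 over the 323 microRNAs whose mean reached 10 RPM.

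Last, of 9 microRNAs reported to act on the regulators or their antagonists, 2 were lower by 1.5-fold, where 6.19% of the 323 were, and 2 were higher, where 8.36% were. Both lower ones are muscle microRNAs reported to act on Prdm16 mRNA. miR-133a-3p was at 11510 RPM in Null and 31477 RPM in WT, and miR-133b-3p at 127 RPM in Null and 689 RPM in WT. The microRNAs of the seed UCACAGU, reported for Prdm16, Pparg and Ppara mRNA, were within 1.5-fold: miR-27b-3p was at 19384 RPM in Null and 16684 RPM in WT, and miR-27a-3p at 1733 RPM in Null and 1362 RPM in WT. The pair with the other shared seed is reported for Pparg mRNA. Of that pair, miR-130a-3p was at 1122 RPM in Null and 1021 RPM in WT, and miR-130b-3p was at 26.8 RPM in Null and 17.2 RPM in WT, a ratio of 1.56. Relative to the median microRNA this ratio was 1.38, under 1.5-fold, which leaves 1 of the 9 higher. miR-155-5p, reported for Cebpb mRNA, was at 78.8 RPM in Null and 75.0 RPM in WT. miR-455-3p, reported to favour brown fat by acting on Runx1t1 among others, was at 544 RPM in Null and 167 RPM in WT, while its partner strand miR-455-5p was at 359 RPM in Null and 329 RPM in WT. With 1 library per genotype these values have no replicate check.

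**Figure D5:**
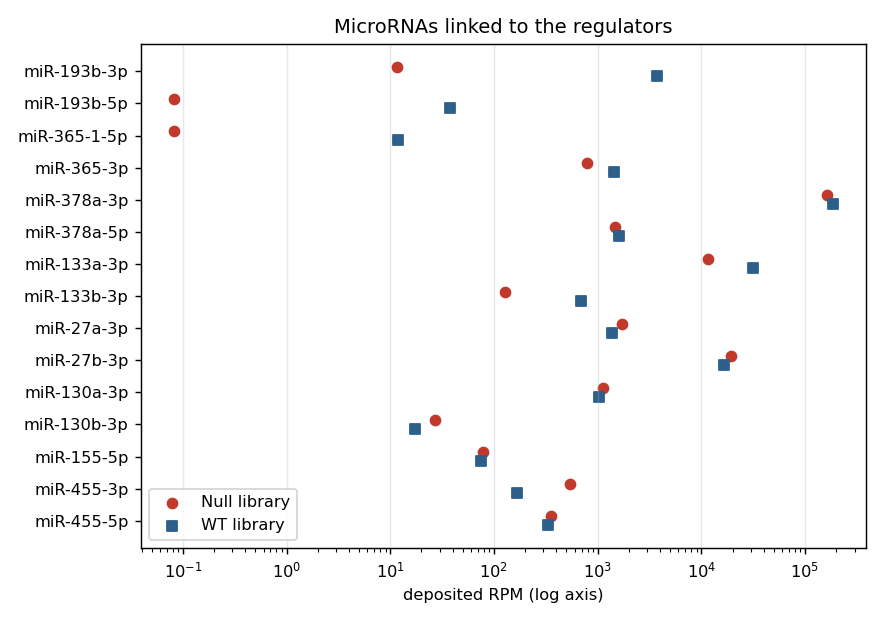
Deposited RPM (log axis) of 15 microRNAs, circles for the Null library and squares for the WT library. miR-193b-3p is at 11.5 RPM in Null and 3705 RPM in WT and miR-365-3p at 798 RPM in Null and 1442 RPM in WT, miR-133a-3p and miR-133b-3p are lower in Null, and miR-455-3p is higher in Null at 544 RPM against 167 RPM in WT.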

How the data were processed

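Brown fat RNA was profiled by poly(A) mRNA sequencing and by small RNA sequencing, per the labels' protocols. Per the submitters' processing notes, the tools included CASAVA, TopHat, BWA, edgeR and DESeq on build mm9; the sources used here do not give their roles, their versions or the gene annotation. Per the file headers, the authors deposited FPKM values as a single column for each genotype, and whether the 3 libraries were pooled or averaged is not stated. FPKM leaves depth unknown, and a gene listed at 0 can be a failed estimate. The deposited microRNA values, headed RPM, are treated as a signal, since the sums of 1578515 in Null and 1559381 in WT exceed what reads per 1000000 reads can give. The deposited p-values and fold ratios of that table compare 2 libraries and were not used.

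Samples were grouped by the genotype in their titles. Log2 ratios were computed with a pseudocount of 1 FPKM over genes whose mean reached 1 FPKM, in Python 3.11.15 with pandas 2.3.3. The code was checked on simulated data with genes of at least 5 FPKM and planted changes well past 1.5-fold. That check says nothing of low genes, of differences near 1.5-fold or of replicate spread. No test between genotypes was possible with 1 value per genotype. A level or ratio is set against all genes as a percentile. The 10 regulators are all named; from other lists, genes past 1.5-fold (at most 4 per direction) and the most abundant one are named. Pprc1, Ppard, Rxrb, Rxrg, Runx1t1, Ucp1, Plin1, Mylpf and Pvalb fall outside this rule and were chosen after their values were seen. Members and lists were chosen with earlier results of these data known. Promoter and microRNA sequences are from RefSeq (GRCm38.p6) and were not used to compute levels.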

Additional observations from a re-analysis of the deposited data

How the results depend on the processing

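The log2 ratios of the regulators were recomputed with a pseudocount of 0.1 FPKM, equal column sums, a median ratio of 1 and quantile normalization. Counts and medians of the regulators and lists used these settings and also no filter or a mean of at least 5 FPKM. Cell type markers and quotients between regulators were not recomputed. The count of regulators at 1.5-fold or more was 1 lower and 0 higher in each setting. At 2-fold or more it became 1 lower, Ppara, with equal column sums. Ppara was barely past that cutoff there, and relative to the shifted median of all genes it fell short of 2-fold. No share of all genes at 2-fold was computed with equal column sums to set beside this count. The median of the regulators was -0.24 with equal column sums and -0.16 with quantile normalization, against -0.04 as deposited. The median of all genes was -0.18 with equal column sums, -0.002 with quantile normalization and 0.01 as deposited. The median percentile of level of the regulators was 67.5 in Null and 74.3 in WT among genes whose mean reached 5 FPKM, against 77.2 in Null and 81.9 in WT among those that reached 1 FPKM. The latter median lies midway between Ppara and Ppargc1b, whose percentiles changed by -7.04 and -2.54, so its gap says little of the other regulators. The log2 ratio of miR-193b-3p was -8.50 relative to the median microRNA, against -8.33 as deposited. Pparg changed sign with equal column sums (-0.19) and quantile normalization (-0.17), Esrra with equal column sums (-0.06), and Esrrg with quantile normalization (0.03). Relative to the median of all genes, Pparg was at -0.01 and Esrra at 0.12 with equal column sums. Of the other results, 123 of 180 recomputed values moved by no more than 0.1 on the log2 scale, or by no more than 1.5 times for a count. This tally does not measure stability, because part of it was fixed in advance. Each microRNA shifted by the same 0.18 relative to the median microRNA, and a median ratio of 1 hardly rescaled the genes. The cause of the differences was not tested. With quantile normalization the median was -0.37 for Ppara targets and -0.37 for brown fat identity targets. It was -0.31 for ERR and PGC-1 targets and -0.31 for Pparg and C/EBP targets. No paired analysis was possible because the columns carry no replicate number, and for the same reason no replicate could be left out.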
